A study of Mus musculus with 6 samples.

Results

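Neurexins, neurexophilins, neuroligins and neuronal pentraxins are proteins that organise synapses from the cell surface or from the space between neurons. The 9 genes described here were chosen by name from these families: the pentraxin genes Nptx2, Nptx1 and Nptxr, the neurexophilin genes Nxph4, Nxph3 and Nxph1, the neuroligin gene Nlgn1, and the neurexin genes Nrxn3 and Nrxn2. They are 9 of the 34285 genes to which the deposited transcripts could be assigned, and all 9 had enough reads to be tested.

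RNA was sequenced from cortical neurons of E14.5 mice, described in the series' design as postmitotic. The mutant group consisted of 3 libraries from Rp58-/- cortices, and the control group of 3 libraries from Rp58+/+ cortices. Rp58, now named Zbtb18, encodes a DNA-binding repressor of the zinc finger kind, and neither the labels nor the design text name the allele, the strain or any agent. Whether each library was made from its own embryo is not stated, so the p-values measure the spread between these libraries, which may be technical. In such bulk samples, fewer cells of a type and less RNA per cell cannot be told apart.

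Neurexins are receptors of the presynaptic membrane. Across the cleft they bind neuroligins, which recruit scaffolds and receptors on the postsynaptic side. Neurexophilins are secreted glycoproteins that bind the long alpha forms of neurexins. Neuronal pentraxins assemble into multimers that gather AMPA-type glutamate receptors, and the pentraxin receptor anchors these multimers to the membrane until it is shed. Nxph4 and Nxph3 are also known as genes of subplate-derived neurons in the deepest cortical layer.

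The pentraxins Nptx2 and Nptx1 had the smallest adjusted p-values of the 9 genes. The stretch of coding sequence that marks the pentraxin family is shown for each of its 3 neuronal genes, to let the relatedness of genes that moved in opposite directions be seen. These are 24 bases read from the GENCODE vM21 transcripts (mouse build GRCm38), 5′ to 3′ on the coding strand, and capitals mark the codons at the conserved positions of the pentraxin signature.
Nptx2: CACatcTGCatcACCTGGaccACT
Nptx1: CACatcTGTgtcACCTGGaccACC
Nptxr: CATatcTGCatcTCCTGGactACA
The stretch lies at coding bases 925 to 948 of 1287 in Nptx2 (chromosome 5), at 940 to 963 of 1296 in Nptx1 (chromosome 11) and at 1120 to 1143 of 1479 in Nptxr (chromosome 15). Over their whole coding sequences, Nptx2 and Nptx1 were identical at 71.7% of aligned bases, Nptx2 and Nptxr at 70.8%, and Nptx1 and Nptxr at 68.6%. In the GENCODE vM21 transcripts no stretch of 31 bases was shared between any of the 9 genes. On those sequences, reads of that length or longer that match exactly could not be divided among them. Some deposited transcript lengths differ from vM21, as for Nptxr-203 (4458 against 4948 bases), so the sequences used for counting may differ too. The 3 neurexophilins lie on chromosomes 10 (Nxph4), 11 (Nxph3) and 6 (Nxph1), and their coding sequences were 65.1% to 68.3% identical.

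The libraries held 53044306 to 56472475 estimated counts in mutants and 34645505 to 75892649 in controls. By the lengths deposited with them, they fall into 2 technical types. Mutants 1 and 2 and control 1 have a fixed-length correction of 249.0 bases, and mutant 3 and controls 2 and 3 an estimated one of 133.7 to 139.2 bases. Mitochondrial transcripts took 3.58% to 5.15% of the counts in fixed-length libraries and 16.39% to 17.54% in estimated-length ones. The types cross the genotypes unevenly, so a term for library type stands in the main test, edgeR's quasi-likelihood test on all 6 libraries with Benjamini-Hochberg adjustment. A gene was called at an adjusted p under 0.05. Zbtb18 itself, the check of the labels, was at 46.9, 45.9 and 535 CPM (counts scaled to a common normalised library size) in mutants 1, 2 and 3, against 1913, 1579 and 1682 CPM in controls 1, 2 and 3. The library labelled mutant 3 therefore kept 32.8% of the level of its estimated-length controls, whereas the other mutants kept 2.43% of that of control 1. Its log2 fold change was -3.48 ± 0.82 (SE; adjusted p = 0.0392). Without the term for library type Zbtb18 was not called (adjusted p = 0.4003, edgeR). Within the library types the values were -5.36 (fixed-length) and -1.61 (estimated-length). The difference between these, 3.76 on the log2 scale, was called. Mutant 3 is the only mutant library of the estimated-length type, so an effect of the type and a trait of this library cannot be told apart. The part of this retained Zbtb18 RNA in the results below was not tested.

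Of the 9 genes, 6 were called: Nptx2, Nxph4, Nxph3 and Nrxn3 rose in mutants, and Nptx1 and Nlgn1 fell. Nxph1, Nptxr and Nrxn2 were not called. Over all 18033 genes tested, 13.4% were called, 7.15% as risen and 6.21% as fallen. The median log2 fold change of the 9 genes was 0.98, against 0.0088 over all genes. In CPM the mutant libraries did not overlap the controls for Nptx2, Nxph4, Nxph3 and Nxph1, which were higher, and for Nlgn1 and Nptx1, which were lower. Such a separation was seen in 14.7% of all genes. Without the term for library type, where 2.36% of genes were called, 2 of the 9 genes were called: Nptx2 and Nptx1.

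**Figure D1:**
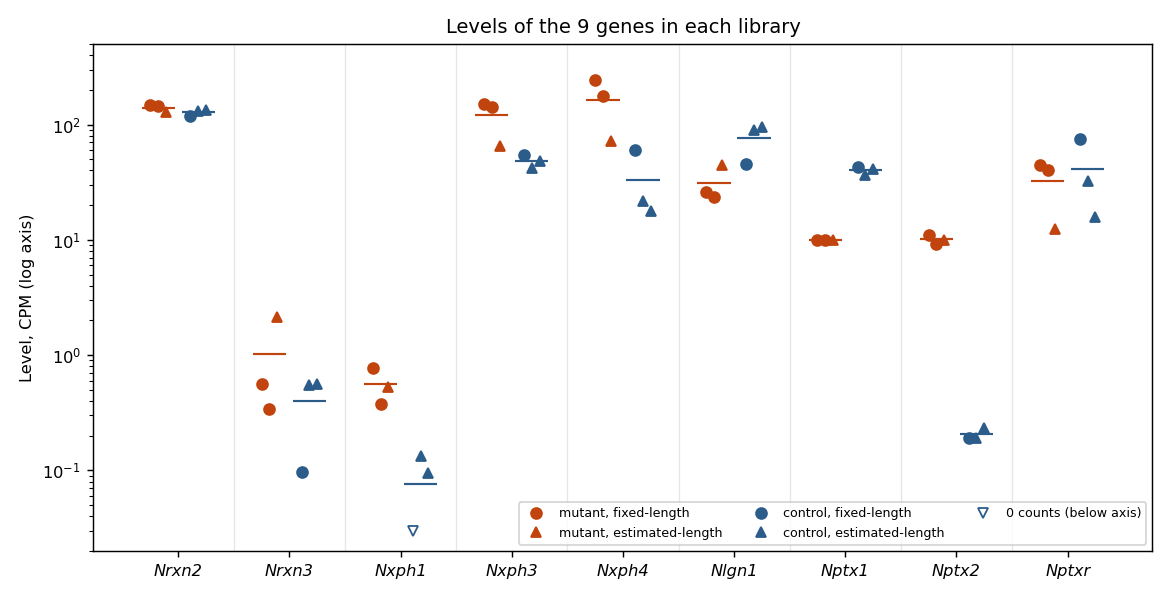
Level of each of the 9 genes in every library, in CPM on a log axis, with mutants left of controls in each column. Circles are fixed-length libraries, triangles are estimated-length libraries, horizontal lines are group means and the open symbol is the control library with 0 counts of Nxph1. Nptx2 lies at 9.27 to 11.0 CPM in mutants and 0.192 to 0.235 CPM in controls, while Nptx1 lies at 9.89 to 9.93 CPM in mutants and 36.7 to 42.7 CPM in controls.

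Nptx2, a secreted pentraxin whose expression follows neuronal activity in mature neurons and which gathers AMPA receptors, rose the most. It had 11.0, 9.27 and 10.1 CPM in mutants 1, 2 and 3, from 569, 493 and 499 counts. Controls 1, 2 and 3 had 0.192, 0.193 and 0.235 CPM, from 6, 13 and 10 counts. Every mutant library lay far above every control library, and mutant 3 did not stand apart from the other mutants. The means were 10.1 ± 0.88 CPM in mutants and 0.207 ± 0.025 CPM in controls (SD, n = 3 each). On the log2 scale the change was 5.37 ± 0.21 (SE), a 41.4-fold rise, with an adjusted p of 4.99e-05. Because the control level rests on 6 to 13 counts a library, the size of the fold is less certain than its direction.

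Nptx1, the other secreted pentraxin, moved the opposite way. It had 9.93, 9.91 and 9.89 CPM in mutants 1, 2 and 3, against 42.7, 36.7 and 40.8 CPM in controls 1, 2 and 3. The 3 mutant libraries were nearly equal, and each was far below the lowest control. The means were 9.91 ± 0.020 CPM in mutants and 40.1 ± 3.06 CPM in controls (SD, n = 3 each). With 512, 527 and 491 counts in mutants 1, 2 and 3, counting error alone exceeds the mutant SD, so that SD understates the uncertainty. On the log2 scale the change was -2.03 ± 0.09 (SE), 4.09-fold lower in mutants, with an adjusted p of 8.06e-05.

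Nptxr, the membrane-bound pentraxin receptor, was not called. It had 44.6, 40.7 and 12.5 CPM in mutants 1, 2 and 3, against 74.3, 32.1 and 15.9 CPM in controls 1, 2 and 3. The groups overlapped, and in both of them the fixed-length libraries were the higher ones. Within each library type every mutant was below its control or controls. The log2 fold change was -0.87 ± 0.26 (SE), with an adjusted p of 0.0778. It was called by DESeq2, at -0.90 with an adjusted p of 0.00479, and without control 3. Of the 31-base words of Nptxr, 17.1% occur in other genes too, most of them in the overlapping gene Npcd, which had 0 counts in every library.

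Nptx2 and Nptx1 also kept their calls within each library type taken alone, in a fit that gave each type its own genotype effect and shared the spread. For Nptx2 the log2 fold change was 5.45 in fixed-length and 5.33 in estimated-length libraries (adjusted p = 0.00147 and 0.000673, edgeR). For Nptx1 it was -2.10 in fixed-length and -1.97 in estimated-length libraries (adjusted p = 0.00106 and 0.00158, edgeR). In these fits 8.16% of all genes were called within the fixed-length type and 6.8% within the estimated-length type. The test of the difference between the types gave an adjusted p of 0.9999 for Nptx2 and 0.9925 for Nptx1. That test called 0.111% of all genes (20 genes, and 1212 at an unadjusted p under 0.05). None of the 9 genes was among the called ones, whereas Zbtb18 was.

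The mix of pentraxin transcripts differed between the genotypes. As a share of the summed TPM of the 3 genes (a level scaled by transcript length and library total), Nptx2 made up 27.5%, 25.4% and 46.8% in mutants 1, 2 and 3, against 0.317%, 0.539% and 0.826% in controls 1, 2 and 3. Nptx1 made up 11.5%, 12.6% and 21.9% in the mutants, against 32.6%, 48.9% and 68.2% in the controls. Per length, Nptx2 RNA was therefore more abundant than Nptx1 RNA in each mutant library and far less abundant in each control library. The share of Nptxr followed the library type rather than the genotype, with 61.1% and 62.0% in the fixed-length mutants and 31.3% in mutant 3, against 67.1% in control 1 and 50.6% and 30.9% in controls 2 and 3.

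**Figure D2:**
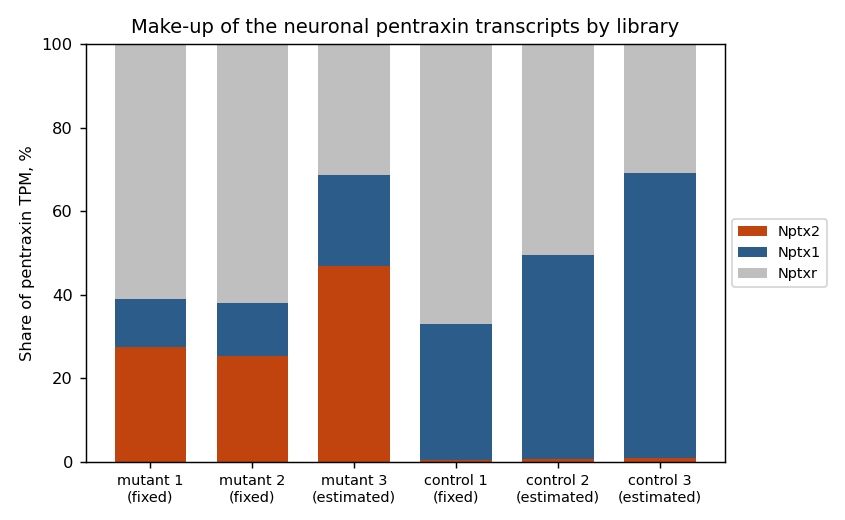
Share of each neuronal pentraxin gene in the summed TPM of the 3 genes, in percent, for the 3 mutant libraries on the left and the 3 control libraries on the right, with the library type under each bar. Nptx2 takes 25.4% to 46.8% in mutants and at most 0.826% in controls, and Nptx1 takes 11.5% to 21.9% in mutants and 32.6% to 68.2% in controls.

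The receptors that pentraxins gather and the protease that sheds the pentraxin receptor were looked at as a list of 5 genes, all of them tested. None rose and 2 fell, with a median log2 fold change of -0.14. Gria3, an AMPA receptor subunit, had 18.9, 16.2 and 21.1 CPM in mutants 1, 2 and 3, against 59.8, 73.2 and 76.9 CPM in controls 1, 2 and 3. All mutants were below all controls, and the log2 fold change was -1.80 ± 0.09 (SE; adjusted p = 0.000113, edgeR). Gria2, the subunit that makes AMPA receptors impermeable to calcium, was called lower at -0.78 ± 0.13 (SE; adjusted p = 0.0122, edgeR), but its groups overlapped, and it was not called without the term for library type (adjusted p = 0.806). Gria1 had 65.4 ± 7.23 CPM in mutants and 73.8 ± 11.9 CPM in controls, and the protease gene Adam17 had 25.9 ± 3.21 CPM in mutants and 23.5 ± 2.33 CPM in controls (SD, n = 3 each). Neither was called.

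Nxph4, a neurexophilin, rose in mutants. It had 243, 178 and 71.8 CPM in mutants 1, 2 and 3, against 59.8, 21.7 and 17.9 CPM in controls 1, 2 and 3. Every mutant was above every control, but the lowest mutant and the highest control, which are of different library types, came close to each other. The log2 fold change was 1.83 ± 0.15 (SE), a 3.56-fold rise with an adjusted p of 0.000591. It was 1.81 within the fixed-length and 1.86 within the estimated-length libraries, and called in both (adjusted p = 0.012 and 0.00763, edgeR). Without the term for library type the log2 fold change was 2.30 and was not called (adjusted p = 0.225).

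Nxph3, a close relative of Nxph4, also rose, with a size that depended on the libraries. It had 152, 143 and 64.7 CPM in mutants 1, 2 and 3, against 54.0, 42.1 and 48.7 CPM in controls 1, 2 and 3. The groups did not overlap, and mutant 3 was nearer to the controls than to the other mutants. Its log2 fold change was 0.98 ± 0.21 (SE), a 1.97-fold rise with an adjusted p of 0.0302. Within the fixed-length libraries it was 1.45 (adjusted p = 0.00496), and within the estimated-length libraries 0.51, which was not called (adjusted p = 0.0981). The difference between the types had an unadjusted p of 0.00367 and an adjusted p of 0.352. The call was lost without control 1 (0.52, adjusted p = 0.098), without control 2 (0.99, adjusted p = 0.0788) and without mutant 1 (0.90, adjusted p = 0.0631).

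Nxph1, the third neurexophilin tested, was close to the lower limit of detection. It had 40, 20 and 26 counts in mutants 1, 2 and 3, against 0, 9 and 4 counts in controls 1, 2 and 3. In CPM these were 0.776, 0.376 and 0.524 in mutants and 0, 0.133 and 0.094 in controls. All mutants were above all controls, yet the log2 fold change of 2.46 ± 0.66 (SE) was not called (adjusted p = 0.0594). DESeq2 called it, with an adjusted p of 0.0102. Since control 1 had no counts, the fitted fold within its library type depends on the prior count and is not given. The remaining gene of the family, Nxph2, had at most 0.0320 CPM in any library and was not tested. Per length, Nxph4 and Nxph3 together made up nearly all neurexophilin RNA. The share of Nxph4 was 67.3%, 61.6% and 58.4% in mutants 1, 2 and 3, against 58.9%, 39.6% and 31.8% in controls 1, 2 and 3.

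Markers of subplate neurons, the early-born cells beneath the cortical plate, are given beside the neurexophilins because Nxph4 and Nxph3 are known in subplate-derived neurons. Summed over 7 such markers the level was 117.3 to 155.8 CPM in mutants and 10.05 to 11.23 CPM in controls, and 3 of the 4 tested markers rose. These were Nr4a2, with 58.3 ± 9.25 CPM in mutants and 3.28 ± 0.68 CPM in controls, Kcnab1, with 71.4 ± 13.1 CPM in mutants and 1.36 ± 0.82 CPM in controls, and Nrgn, with 1.31 ± 0.59 CPM in mutants and 0.244 ± 0.126 CPM in controls (SD, n = 3 each). Tmem163, the other tested marker, had 9.84 ± 1.83 CPM in mutants and 5.75 ± 1.93 CPM in controls (SD, n = 3 each). Its groups overlapped and it was not called (adjusted p = 0.0776, edgeR). Nrgn lost its call without the term for library type (adjusted p = 0.2, edgeR). The defining markers Ccn2, Cplx3 and Moxd1 were near 0, at no more than 0.201, 0.161 and 0.0604 CPM in any library. Markers of intermediate progenitors, the dividing precursors of cortical neurons, were likewise higher, at 405.3 to 515.4 CPM in mutants and 172.7 to 261.2 CPM in controls, and 3 of 5 rose. The part of either cell type in the changes of Nxph4 and Nxph3 was not tested.

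Nlgn1, a neuroligin found at glutamatergic synapses, fell. It had 26.1, 23.4 and 44.5 CPM in mutants 1, 2 and 3, against 45.1, 89.8 and 96.1 CPM in controls 1, 2 and 3. In both groups levels were higher in estimated-length libraries, and mutant 3 almost reached control 1 without overlapping it. Mutant 3 is also the mutant library that retained Zbtb18 RNA, and the part of either in its Nlgn1 level was not tested. The log2 fold change was -0.96 ± 0.09 (SE), 1.95-fold lower in mutants, with an adjusted p of 0.00114. It was -0.86 within the fixed-length and -1.06 within the estimated-length libraries (adjusted p = 0.0155 and 0.00977, edgeR). Without the term for library type it was -1.30 and was not called (adjusted p = 0.28).

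The neuroligin family as a whole had 3 genes tested, of which none rose and 2 fell, with a median log2 fold change of -0.465. Nlgn3, which is found at both glutamatergic and inhibitory synapses, had 66.9, 66.8 and 88.1 CPM in mutants 1, 2 and 3, against 89.6, 128 and 122 CPM in controls 1, 2 and 3. Its groups barely stayed apart, and the log2 fold change was -0.46 ± 0.07 (SE; adjusted p = 0.00759, edgeR). Nlgn3 was not called without the term for library type (adjusted p = 0.424, edgeR). Nlgn2, the neuroligin of inhibitory synapses, had 263, 295 and 157 CPM in mutants, against 257, 161 and 172 CPM in controls. It followed the library type, and its log2 fold change of 0.017 ± 0.097 (SE) was not called (adjusted p = 0.938, edgeR).

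Nrxn2, a neurexin gene on chromosome 19, was well expressed in every library. It had 147, 146 and 128 CPM in mutants 1, 2 and 3, against 118, 131 and 134 CPM in controls 1, 2 and 3. The groups overlapped, and the log2 fold change of 0.13 ± 0.10 (SE) was not called (adjusted p = 0.468). Its sign differed between the types, with 0.30 in fixed-length and -0.046 in estimated-length libraries, and neither value was called. The difference between them had an unadjusted p of 0.077 and an adjusted p of 0.807.

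Nrxn3, a neurexin that is abundant in interneurons, was called higher in mutants, but from very few reads. It had 29, 18 and 107 counts in mutants 1, 2 and 3, against 3, 37 and 24 counts in controls 1, 2 and 3. In CPM these were 0.563, 0.339 and 2.16 in mutants and 0.096, 0.548 and 0.564 in controls. The groups overlapped, with controls 2 and 3 close to mutant 1, but within each library type every mutant was above every control. The log2 fold change with the term for library type was 1.87 ± 0.32 (SE), a 3.66-fold rise with an adjusted p of 0.0114. Within the fixed-length and the estimated-length type it was not called (adjusted p = 0.121 and 0.0536, edgeR), and leaving out mutant 3 gave 1.85 with an adjusted p of 0.137. The call was also lost without control 1, 2 or 3 (adjusted p = 0.0527, 0.062 and 0.0564, edgeR). Without the term it was 1.25 (adjusted p = 0.996).

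Interneuron markers are given beside Nrxn3 because of its known place in these cells. Summed over 10 GABAergic markers the level was 4.617 to 7.695 CPM in mutants and 2.176 to 5.716 CPM in controls. Of 8 tested, 2 rose, namely Slc32a1, the vesicular GABA transporter, and Dlx5, an interneuron transcription factor. Slc32a1 had 0.475 ± 0.14 CPM in mutants and 0.026 ± 0.024 CPM in controls, and Dlx5 0.821 ± 0.43 CPM in mutants and 0.056 ± 0.029 CPM in controls (SD, n = 3 each). Neither was called without the term for library type (adjusted p = 0.282 and 0.119, edgeR). The defining enzymes Gad1 and Gad2 stayed below 1 CPM in every library and were not called, and Sst was at no more than 0.136 CPM. The part of these cells in the change of Nrxn3 was not tested.

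**Figure D3:**
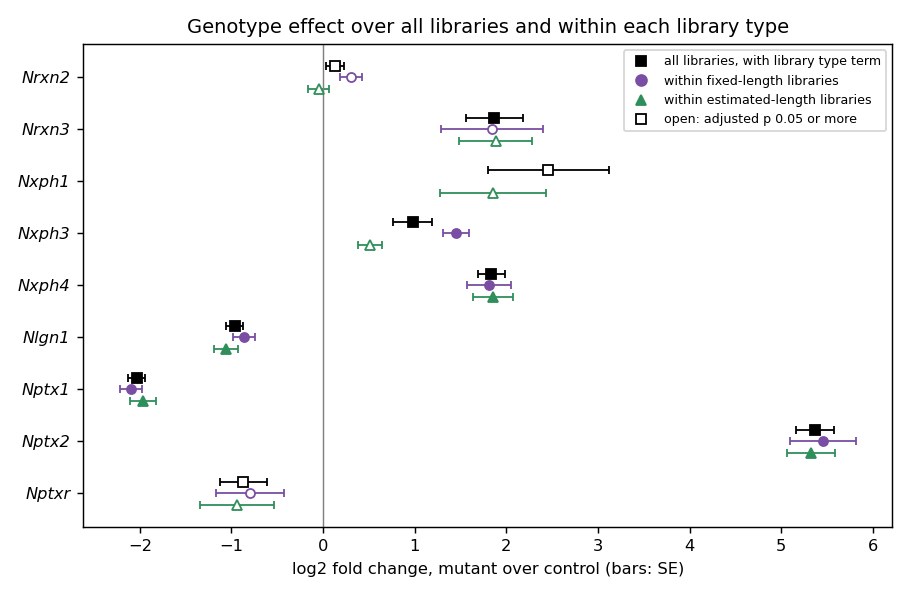
Log2 fold change of mutant over control for each of the 9 genes, with bars of 1 SE, over all libraries with the term for library type (squares), within fixed-length libraries (circles) and within estimated-length libraries (triangles). Open symbols have an adjusted p of 0.05 or more. Nptx2 and Nptx1 lie at about the same place in all 3 estimates, Nxph3 has 1.45 in fixed-length and 0.51 in estimated-length libraries, the Nrxn3 value within the fixed-length type rests on 3 counts in control 1, and no such value is drawn for Nxph1, which had 0 counts there.

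Compared per length, Nxph4, Nxph3 and Nrxn2 were the 3 most abundant of the 9 genes in each mutant library and in control 1. In controls 2 and 3, Nlgn1, with 9.69 and 8.77 TPM, was above Nxph3, with 7.39 and 7.46 TPM, and above Nxph4, with 4.86 and 3.49 TPM. Nxph4 averaged 145 ± 115 TPM in mutants and 20.6 ± 28.4 TPM in controls, and Nrxn2 averaged 64.2 ± 46.3 TPM in mutants and 31.3 ± 27.9 TPM in controls (SD, n = 3 each). The spread is wide because TPM was several times lower in estimated-length libraries for these genes, so no change between genotypes is read from it. Nptxr, Nlgn1, Nptx2 and Nptx1 followed in mutants, with 10.1 ± 8.01, 7.55 ± 2.88, 4.64 ± 2.91 and 2.12 ± 1.33 TPM, and Nxph1 and Nrxn3 came last with 0.252 ± 0.18 and 0.099 ± 0.024 TPM. In that order of mutant means, the ranges of mean ± SD of neighbours overlapped, except between Nptx1 and Nxph1. By control means, which control 1 raises, the order began with Nrxn2 and placed Nptx2 seventh, at 0.054 ± 0.045 TPM.

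The tables list 38 transcripts of the 9 genes, of which 36 had counts in some library and 25 were tested. Across all transcripts tested, 1.1% were called, and among those of the 9 genes 3 were called. Nptx2-201 rose (log2 fold change 5.41 ± 0.26, adjusted p = 0.00656, edgeR), Nxph4-201 rose (1.87 ± 0.18, adjusted p = 0.0239, edgeR) and Nptx1-201 fell (-1.997 ± 0.12, adjusted p = 0.00864, edgeR). Each is the only listed transcript of its gene, as is Nxph3-201, which was not called at this level (1.02 ± 0.26, adjusted p = 0.232, edgeR). The SE stands after each ± sign. These values come from the same reads as the gene values of the 4 genes, in a separate fit over all transcripts, and are no independent support.

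The genes with several transcripts showed shares that followed the library type. Nlgn1-201, the longer coding form, took 94.3%, 90.8% and 63.9% of the Nlgn1 counts in mutants 1, 2 and 3, against 91.9%, 61.1% and 66.0% in controls 1, 2 and 3, and Nlgn1-202 took the rest. The deposited length of Nlgn1-202 is 2445 bases, against 4272 in GENCODE vM21. The split thus rests on a shorter sequence of that form than the annotation gives. Nptxr-203 took over 99% in the fixed-length libraries of both genotypes, but 22.6% in mutant 3, against 37.5% and 66.8% in controls 2 and 3. In those libraries most of the remainder went to Nptxr-201, which has a coding sequence of the same length. The counts of Nrxn3 were divided over 6 transcripts that held at least 10% of the gene in some library, and with 3 to 107 counts a library their shares cannot be read. The same is true of the 3 transcripts of Nxph1.

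Nrxn2 has long coding forms, with 4 listed transcripts of 4509 to 5130 coding bases, and short ones, with 2 transcripts of 1059 to 1980 coding bases. Alpha neurexins, the forms that bind neurexophilins, are the long kind and beta neurexins the short kind. The long forms took 33.1%, 21.8% and 69.0% of the Nrxn2 counts in mutants 1, 2 and 3, against 43.5%, 61.9% and 61.1% in controls 1, 2 and 3. The short forms took 52.8%, 63.3% and 14.3% in the mutants, against 42.4%, 21.1% and 21.6% in the controls, almost all of it in Nrxn2-202. The mutants held both the highest and the lowest share of each kind. An exact two-sided permutation test of the shares gave p = 0.4 for either kind, where 3 libraries against 3 cannot go below 0.1. That test took no account of library type, which the shares followed, so it does not decide whether they differed by genotype. The log2 fold change of Nrxn2-202 was 0.83 within the fixed-length type and -0.61 within the estimated-length type, with an adjusted p of 0.202 for the difference (edgeR). Of the long forms, Nrxn2-205 was nearest to a call, at 0.86 ± 0.20 (SE; adjusted p = 0.181, edgeR). Nrxn2-204 and Nrxn2-208 were not called either, and the share of Nrxn2-208 ranged from 0% in control 3 to 29.0% in control 1. Of the 31-base words of Nrxn2, 5.92% occur in other genes, most of them on the opposite strand of Slc22a12, which had 0.094 to 0.645 CPM. Whether the reads were counted by strand is not stated by the sources at hand.

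**Figure D4:**
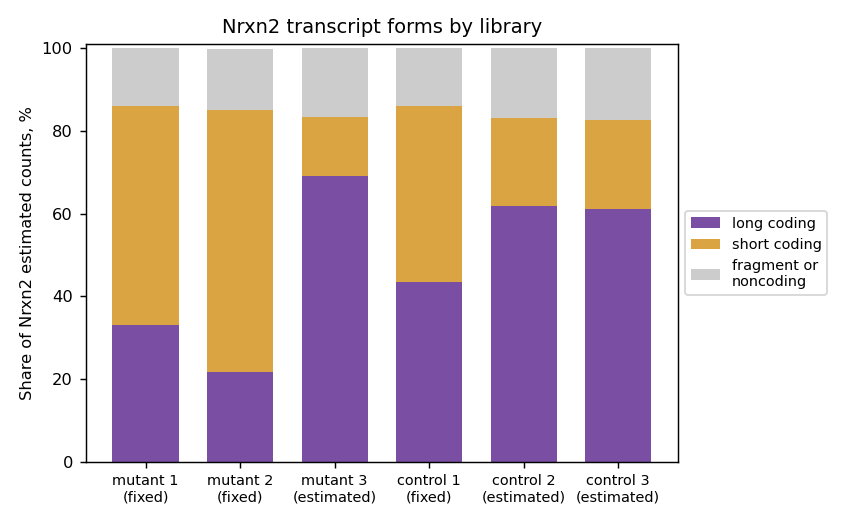
Share of the Nrxn2 estimated counts in long coding transcripts, short coding transcripts and fragments or noncoding transcripts, in percent, for the 3 mutant libraries on the left and the 3 control libraries on the right. Long forms take 21.8% to 69.0% in mutants and 43.5% to 61.9% in controls, and the bars look alike within a library type more than within a genotype.

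Other surface partners of neurexins and neuroligins were counted in a list of 27 genes. Of 24 tested, 6 rose and 5 fell, with a median log2 fold change of 0.20. Cerebellins are secreted proteins that bridge neurexins to delta-type glutamate receptors, and 2 of the 4, Cbln2 and Cbln4, were called higher. Cbln2 had 38.4, 27.4 and 26.1 CPM in mutants 1, 2 and 3, against 3.81, 2.80 and 2.23 CPM in controls 1, 2 and 3. Cbln4 had 3.01, 2.94 and 3.36 CPM in the mutants, against 0.096, 0.030 and 0.070 CPM in the controls. For both genes all mutants were far above all controls. The log2 fold changes were 3.23 ± 0.19 for Cbln2 (SE; adjusted p = 0.00016, edgeR) and 4.97 ± 0.35 for Cbln4 (SE; adjusted p = 0.000327, edgeR). Adgrl3, a latrophilin, was called at 1.39 ± 0.11 (SE; adjusted p = 0.00052, edgeR), but its groups overlapped and it was not called without the term for library type (adjusted p = 0.993). Cbln1, the cerebellin of the cerebellar parallel fibre synapse, had 24.4 ± 10.6 CPM in mutants and 21.8 ± 6.59 CPM in controls (SD, n = 3 each) and was not called. Cbln3 had 0.902 ± 0.70 CPM in mutants and 1.73 ± 1.01 CPM in controls (SD, n = 3 each) and was not called either.

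Of 22 scaffold proteins that sit beneath neurexins or neuroligins, all tested, 4 rose and 5 fell, with a median of -0.20. Dlg2, a scaffold of the postsynaptic density, had 3.51, 2.67 and 3.61 CPM in mutants 1, 2 and 3, against 36.4, 60.5 and 57.4 CPM in controls 1, 2 and 3. Its log2 fold change was -3.77 ± 0.16 (SE; adjusted p = 7.07e-05, edgeR). Dlgap1, which binds that family of scaffolds, had 44.8 ± 10.8 CPM in mutants and 15.5 ± 4.47 CPM in controls (SD, n = 3 each), a log2 fold change of 1.76 (adjusted p = 0.000255, edgeR). Epb41l3, a membrane-cytoskeleton linker, had 36.8 ± 3.48 CPM in mutants and 71.0 ± 5.64 CPM in controls (SD, n = 3 each), a log2 fold change of -0.90 (adjusted p = 0.00164, edgeR). Dlgap1 and Epb41l3 were not called without the term for library type (adjusted p = 0.0802 and 0.0504, edgeR). Scaffold genes thus moved in both directions.

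Among 30 genes of other synaptic organizer families, all tested, 8 rose and 6 fell, with a median of 0.21. Lrfn2 and Lrfn5, relatives in one family of leucine-rich synaptic adhesion molecules, moved in opposite directions. Lrfn2 had 26.3, 24.1 and 22.4 CPM in mutants 1, 2 and 3, against 2.85, 3.82 and 3.31 CPM in controls 1, 2 and 3 (log2 fold change 2.86 ± 0.16 SE, adjusted p = 0.000153, edgeR). Lrfn5 had 24.3, 26.7 and 27.9 CPM in the mutants, against 105, 230 and 180 CPM in the controls (log2 fold change -2.46 ± 0.21 SE, adjusted p = 0.000779, edgeR). In neither gene did the groups overlap. Slitrk2, which pairs with presynaptic receptor phosphatases, fell by 1.19 on the log2 scale (adjusted p = 0.000361, edgeR), but was not called without the term for library type (adjusted p = 0.126, edgeR). Of the 3 listed regulators of neurexin exon splicing, Khdrbs2 fell, none rose, and the median was -0.405. Khdrbs2 had 21.7 ± 5.80 CPM in mutants and 56.0 ± 4.99 CPM in controls (SD, n = 3 each; log2 fold change -1.33, adjusted p = 0.00893, edgeR). It too was not called without the term for library type (adjusted p = 0.0535, edgeR).

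**Figure D5:**
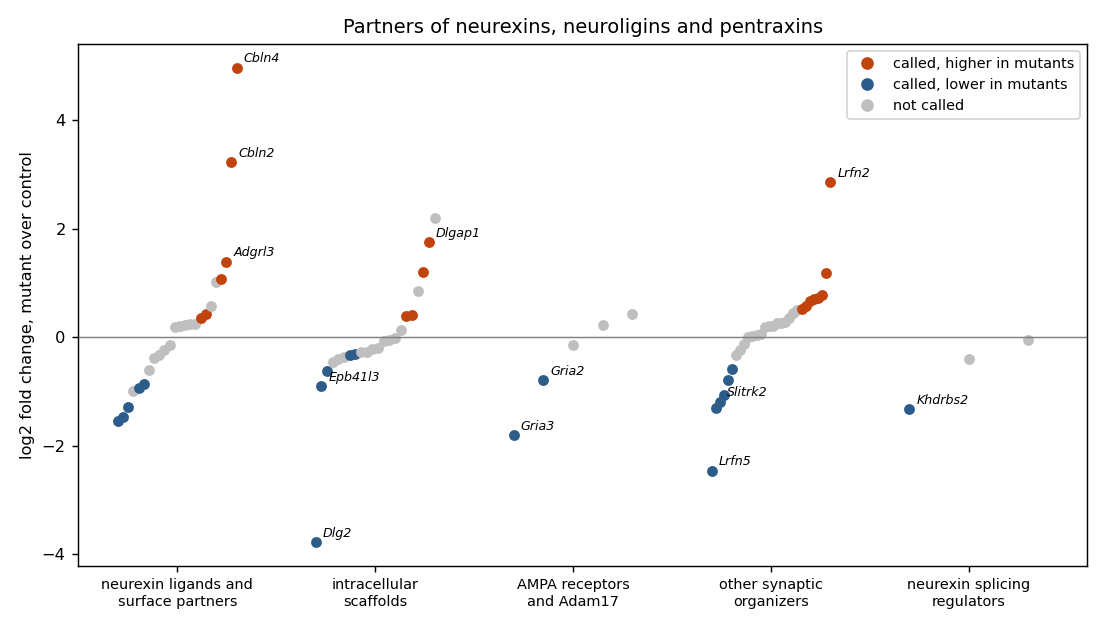
Log2 fold change of mutant over control for each tested gene of 5 lists around the neurexins, neuroligins and pentraxins, ordered by value within a list, with called genes in colour and the genes named in the text labelled. The lists hold called genes on both sides of 0 except the lists of AMPA receptors with Adam17 and of splicing regulators, in which only falls were called.

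Together with the family genes that are not among the 9, these lists hold 91 genes, of which 87 were tested and 38 were called, 18 higher and 20 lower. This is 43.7% of those tested, beside 13.4% of all genes, and the median log2 fold change was 0.011, against 0.0088 over all genes. No set test was run. Without the term for library type 8 of these genes were called.

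Markers of other cell types were summed in the same way. Glutamatergic cortical neuron markers were at 2121 to 2801 CPM in mutants and 3479 to 3967 CPM in controls, and 1 of 7 rose while 5 fell. Pan-neuronal markers were at 3654 to 5772 CPM in mutants and 4444 to 6711 CPM in controls, with 2 of 6 risen and 2 fallen. Cajal-Retzius markers were at 253.6 to 707.3 CPM in mutants and 204.7 to 724.9 CPM in controls, with 1 of 7 risen. Radial glia markers were at 99.92 to 212.4 CPM in mutants and 106.1 to 238.6 CPM in controls, a sum that followed the library type. Of these 8 markers, 3 rose and 3 fell. In mutants Hes1 had 6.36 to 8.36, Sox2 3.84 to 8.34 and Pax6 21.55 to 30.16 CPM. In controls these risen genes had 0.178 to 0.258, 0.859 to 0.96 and 5.731 to 8.51 CPM. They were also called without the term for library type (adjusted p = 0.00344, 0.0433 and 0.0185, edgeR). Of the fallen Vim, Fabp7 and Slc1a3, only Slc1a3 was (adjusted p = 0.041, edgeR). Defining markers of neurons, the labelled cell type, were thus present in every library. Oligodendrocyte lineage markers were at 38.42 to 55.59 CPM in mutants and 23.92 to 30.46 CPM in controls, with all 3 tested risen, while Sox10 had no count in any library and Olig1 and Olig2 were near 0. Most of that sum was Mbp, with 44.7 ± 9.69 CPM in mutants and 26.7 ± 3.51 CPM in controls (SD, n = 3 each). The astrocyte sum followed the library type, at 1.787 to 45.25 CPM in mutants and 0.7358 to 61.33 CPM in controls, with 1 of 4 risen. Most of it was Slc1a2, at 43.9 CPM in mutant 3, whereas the risen gene was Aldh1l1, which stayed below 1 CPM. Endothelial, microglial and meningeal sums stayed at or below 3.324 CPM in every library, with 1 risen gene among them, the endothelial Kdr. Erythroid markers were at 5.916 to 20.52 CPM in mutants and 6.575 to 11.2 CPM in controls, and none was called.

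Promoter sequence, taken from RefSeq for build GRCm38.p6 and reaching from 250 bases before to 50 bases after a start site, was at hand for 3 of the 9 genes: Nlgn1, Nrxn3 and Nxph1, with 6 windows in all. The letters CATCTG, part of the motif known for RP58, were searched on both strands (CAGATG on the other). They occurred in 0 of these 6 windows and in 17.2% of 32851 windows of all genes. The longer ACATCTG, which contains the first, occurred in 0 of the 6 and in 4.43% of all. No promoter window of Nptx2, Nptx1, Nptxr, Nxph4, Nxph3 or Nrxn2 was looked at.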

How the data were processed

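Each deposited table lists 97251 transcripts with the length, effective length, estimated count and TPM of 1 library. FastQC, kallisto and the mm9 build are named in the submitters' processing notes, without versions. Per the file headers, the estimated count is a raw value that the authors did not normalise further, and the TPM is the authors' scaling by effective length and total. The lengths, in bases, were deposited by the authors too, and their difference defined the library types, without use of any gene's expression. The sources at hand do not state what made the types differ.

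Of the transcripts, 84632 were joined to GENCODE vM21 gene symbols, and those left out took 6.85% to 8.58% of the counts. Estimated counts were summed per gene and rounded. The test was edgeR 4.0.16 (R 4.3.3, quasi-likelihood, TMM, filterByExpr with its minimum count of 10, prior count 2) with terms for library type and genotype over all 6 libraries, and Benjamini-Hochberg adjustment over all 18033 genes, or 53574 transcripts. The SE was taken as the size of the log2 fold change over the square root of the F statistic. The common biological coefficient of variation was 0.196 with the type term and 0.701 without. Effects within a type came from 1 fit with a spread pooled over both types, since each type holds 1 genotype as a single library. The procedure was tested on simulated counts, with 100 genes changed by a log2 fold change of 1 and 100 by 2, up or down. It called 65% of the former and 96% of the latter. Another 37 calls were false, among 18033 genes. Set against the true calls, this is a larger share of false calls than the threshold on the adjusted p aims at. A call close to that threshold is therefore less certain than its adjusted p states. Alternatives were no type term, relative log expression scaling, no filter, protein-coding genes only, effective lengths as offsets, DESeq2 1.42.0 and leaving out each library.

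The 9 genes, the gene and marker lists, the tests and the rule for named genes were chosen with earlier results of these data known. The rule took all 9 genes, their transcripts with at least 10% of a gene's counts in some library, Zbtb18, and up to 3 called genes with the smallest p per list. Other genes of a named family or marker list were added after their values were seen. A gene that this rule would take is not reported here. Coordinates are not given, because the notes name another build than the annotation. Read counts carry counting error beside the spread between libraries.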

Additional observations from a re-analysis of the deposited data

How the results depend on the processing

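Nptx2 and Nptx1 kept their direction and call under all 12 alternatives, with log2 fold changes of 5.30 to 5.60 and -2.10 to -1.96. Nxph4 and Nlgn1 lost their calls under 1 of 12, the fit without the library type term. Nxph3 lost its call there and without control 1, control 2 or mutant 1 (0.52 to 1.45 over the left-out libraries). Nrxn3 lost its call there, with effective lengths as offsets (1.28, adjusted p = 0.0971, edgeR) and without mutant 3 or any 1 control. Nxph1 and Nptxr gained calls without the filter, with DESeq2, and without mutant 3 (Nxph1) or control 3 (Nptxr). Nrxn2 changed sign without control 1 (-0.035 to 0.31 over the left-out libraries) and within estimated-length libraries (-0.046), uncalled in both. Without the type term the 9 genes had 2 calls (1 risen, 1 fallen), their transcripts 0, the listed organizer genes 8 and all genes 400. DESeq2 called 3895 genes. Leaving out each library gave 4 to 6 calls among the 9 genes, with 2 to 4 risen (2 without control 1 or control 2) and 2 to 3 fallen. The same omissions gave 21 to 43 organizer genes, with 21 without control 1 and 25 without control 3, 1216 to 3034 genes in all (1216, 1410 and 1431 without control 1, 2 and 3, and 1513 without mutant 3) and 0 to 2 of the 9 genes' transcripts (0 without mutant 3 or any 1 control). The causes were not tested. No paired analysis was possible because the numbers 1 to 3 were given in accession order and the labels tie no mutant library to a control library. With 3 libraries a group and a single library of 1 genotype in each type, effects within a type rest on a pooled spread, and Nrxn3 and Nxph1 are limited by their counts.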
